A study of Mus musculus with 24 samples.

Results

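The retina was compared with the cornea, iris, lens, RPE/choroid and sclera of the same mouse eyes by the signals of their microRNAs (miRNAs). The members are the 3 arrays that the labels give as retina, and they were set against the 15 arrays of the other 5 ocular tissues, out of 24 arrays in the whole series. The mice were males of the C57BL/6J strain. For each tissue, 1 array came from normal eyes without a lens, 1 from eyes labelled 0 D and 1 from eyes with a −30 D lens, the model of lens-induced myopia. The methods state that the −30 D lens was fixed on the right eye at 3 weeks of age and kept for 3 weeks, and that RNA of 3 mice was mixed for each array of the normal and the −30 D eyes. The methods give no account of the 0 D eyes, so that the age and the number of their mice are not known here.

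The 3 lens groups were used as near-replicates of a tissue. The p-values below therefore measure the spread between arrays of different lens groups, each a pool where pooling is stated, and not the spread between single animals. Each of the 3 slides carried the 8 tissues of a single lens group. A slide effect cannot be told apart from a lens effect, but the 6 ocular tissues lay side by side on every slide.

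A miRNA is a short RNA that is cut from a hairpin precursor and guides a silencing complex to messenger RNAs that pair with it. Pairing rests mostly on the seed, bases 2 to 8 of the mature miRNA, so that miRNAs with a common seed share many targets. The neural retina holds photoreceptors, the neurons they signal to and Müller glia. It is known for the miR-183/96/182 cluster of sensory cells and for the neuronal miR-124 and miR-9.

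The mature sequences below belong to the miRNAs on which the comparison turned. They were taken from RefSeq with the mouse build GRCm38.p6, in which 244 of the 295 miRNAs tested were found by name, and the capitals mark the seed.
The first set shows the sensory cluster, miR-9 and miR-129, which had the largest differences in favor of the retina among the miRNAs found.
miR-183-5p: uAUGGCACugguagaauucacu
miR-96-5p: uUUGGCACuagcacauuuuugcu
miR-182-5p: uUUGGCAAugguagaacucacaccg
miR-9-3p: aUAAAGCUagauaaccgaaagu
miR-129-5p: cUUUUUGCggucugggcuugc
miR-129-2-3p: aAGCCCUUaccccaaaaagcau
The second set shows families whose members share a seed and were higher together in the retina.
miR-181a-5p: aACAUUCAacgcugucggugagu
miR-181b-5p: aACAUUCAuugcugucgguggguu
miR-181c-5p: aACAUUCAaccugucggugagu
miR-29b-3p: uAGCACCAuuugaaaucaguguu
miR-29c-3p: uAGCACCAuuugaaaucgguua
The third set shows miRNAs that were lower in the retina.
miR-184-3p: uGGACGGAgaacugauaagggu
miR-199a-3p: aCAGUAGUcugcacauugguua
miR-27a-3p: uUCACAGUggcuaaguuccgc
miR-23a-3p: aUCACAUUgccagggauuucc
miR-205-5p: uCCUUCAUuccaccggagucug
miR-200b-3p: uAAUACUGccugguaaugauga
miR-200c-3p: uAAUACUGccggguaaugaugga
The last set shows a seed whose members went opposite ways, with miR-130a-3p lower and the others higher in the retina.
miR-130a-3p: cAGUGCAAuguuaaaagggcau
miR-130b-3p: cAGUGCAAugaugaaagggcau
miR-301a-3p: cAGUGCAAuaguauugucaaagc

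The signal of a miRNA is the sum of its probes above 3 times their error, an intensity after background subtraction that was scaled between arrays on the 79 miRNAs detected on all 24 arrays. A miRNA with no such probe was not detected. Between 222 and 245 of the 1881 miRNAs on the array were detected on the retina arrays, against 129 to 149 on the lens arrays, 137 to 172 on the cornea arrays and 213 to 239 on the arrays of the iris, RPE/choroid and sclera. For the tests, values below 9.93, the highest of the lowest detected signals of the 18 arrays, were set to this floor. Levels of different miRNAs were measured by different probes and are not compared with each other. Since each array measured the RNA of mixed cells, fewer cells of a type and less RNA per cell cannot be told apart in any result.

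The 3 retina arrays were close to each other. Of the 221 miRNAs detected on all 3, 218 differed by less than 2-fold between the lowest and the highest array, with a median range of 1.23-fold, and the Pearson correlation of the log2 signals over miRNAs, which are not independent, was 0.995 to 0.997. A further 7 miRNAs were detected on 2 retina arrays and 21 on 1. The widest range was that of miR-184-3p, which was brightest in the cornea and lens. Its signals were 70.5, 32.6 and 40.7 on the retina arrays of normal, 0 D and −30 D eyes. This order is kept for all retina values below. The other ranges above 2-fold were those of miR-135b-5p, with 9.23, 10.2 and 4.77, and miR-365-3p, with 8.19, 9.94 and 4.85, both near the floor.

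A miRNA was called higher in the retina when the difference between the retina mean and the mean of the other 5 tissue means was at least 1 on the log2 scale, the adjusted p-value of limma (Benjamini-Hochberg over the 295 miRNAs tested) was below 0.05, and the retina array lay at least 1 above the mean of the other arrays within each lens group. By this rule 55 miRNAs, or 18.6% of those tested, were higher and 39, or 13.2%, were lower in the retina. The counts called in a list, seed or locus below are to be set against these shares. The adjusted p-value alone passed for 97 miRNAs with a positive and 108 with a negative difference, and the median difference over all miRNAs tested was −0.03. Of the 55 higher miRNAs, 22 were detected on all 15 other arrays, 30 on some and 3 on none. Of the 39 lower miRNAs, 12 were detected on no retina array, so that the size of their difference depends on the floor. Without scaling, 98 miRNAs were higher and 29 lower, so that the share of higher calls was 77.2% in place of 58.5%, and the median of all miRNAs tested moved to 0.35. The share was 41.3% with undetected miRNAs at the lowest signal of their array, and 25.4% after a normexp background correction, which left 16 higher and 47 lower miRNAs. A total per miRNA that the scanner software printed was tried as well, which for some miRNAs is not the sum of the probes used here, and on this printed total 41 miRNAs were higher and 32 lower. Where these settings ended the call of a miRNA that the rule in the processing section names, this is said beside it. The calls of other miRNAs described below were not checked singly in these settings. Among them are miR-127-3p, miR-154-5p, miR-29c-5p and miR-16-5p. Calls that a setting added are given for some miRNAs only.

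**Figure D1:**
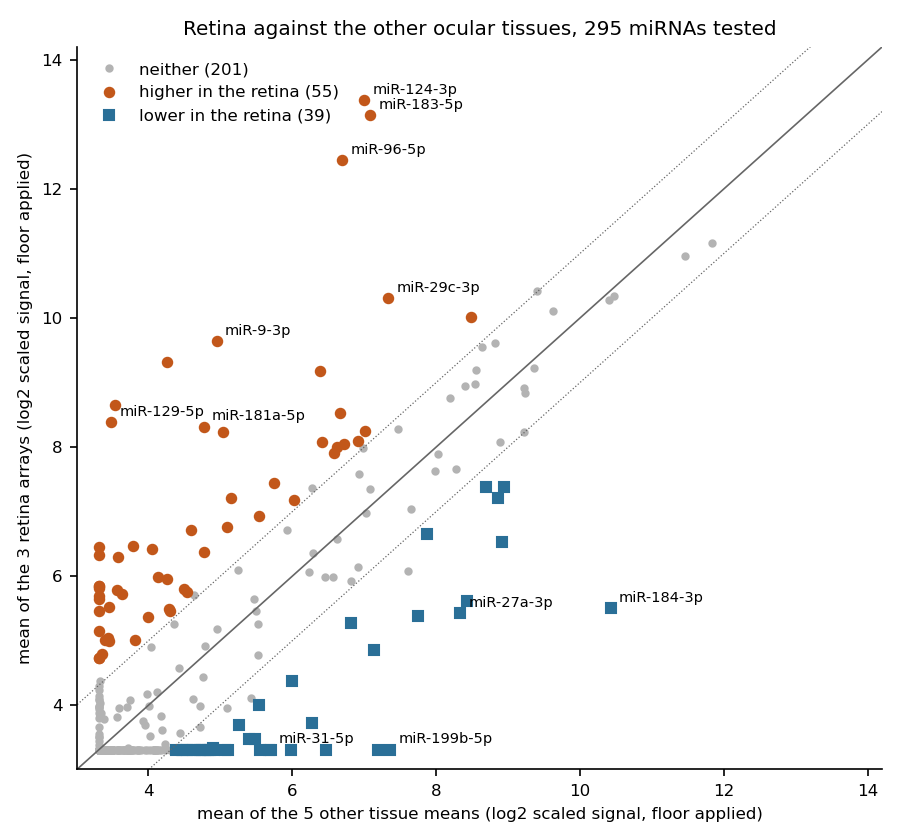
Each point is 1 of the 295 miRNAs tested, with the mean log2 scaled signal of the 5 other tissues on the x axis and that of the 3 retina arrays on the y axis, values below the floor set to it. The solid line marks equal signals and the dotted lines a 2-fold difference, and the 55 higher and 39 lower miRNAs are colored.

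In 30 of the 55 higher miRNAs, 10.2% of those tested, the retina array lay at least 2-fold above every other ocular array of its lens group. These are called highest in the retina. In 3 of the 39 lower miRNAs, 1.02% of those tested, it lay at least 2-fold below every other array.

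The sensory miR-183/96/182 cluster, at chr6:30165962-30169732 on the minus strand of GRCm38.p6, was highest in the retina with all 4 of its tested mature miRNAs. The cluster is transcribed as 1 precursor and is enriched in photoreceptors and other sensory cells. miR-183-5p had signals of 9710, 8510 and 8906 in the retina, while the other 15 arrays ranged from 10.6 to 900.0 with a median of 182. The groups did not overlap, and the lowest retina array was above the highest other array, an RPE/choroid array. The difference was 6.06 ± 0.33 (SE, 3 against 15 arrays) on the log2 scale, or 66.8-fold (adjusted p = 1.23e-09, limma).

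miR-96-5p, the member best known for its role in hearing, had signals of 5739, 6105 and 5009 in the retina and of 9.92 to 487 on the other arrays, a log2 difference of 5.76 ± 0.30. miR-182-5p had signals of 721, 621 and 583 in the retina. No iris or lens array detected it, and it reached at most 49.0 elsewhere. Its log2 difference with undetected arrays at the floor was 5.05 ± 0.23. miR-183-3p, the passenger strand of miR-183, had 55.2, 52.6 and 47.2 in the retina and was detected on a single other array, at 2.74 in the RPE/choroid. miR-96-3p and miR-182-3p, the other members of the list, were detected on no retina array and were not tested. The 4 calls of the cluster held under every alternative setting tried, while after the normexp correction 2 members each were higher of the miR-124 and miR-9, the miR-129 and the miR-181 lists, and the calls of miR-124-5p, miR-9-5p, miR-129-1-3p and miR-181c-5p were lost with values of 0.95, 0.99, 1.04 and 0.87.

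**Figure D2:**
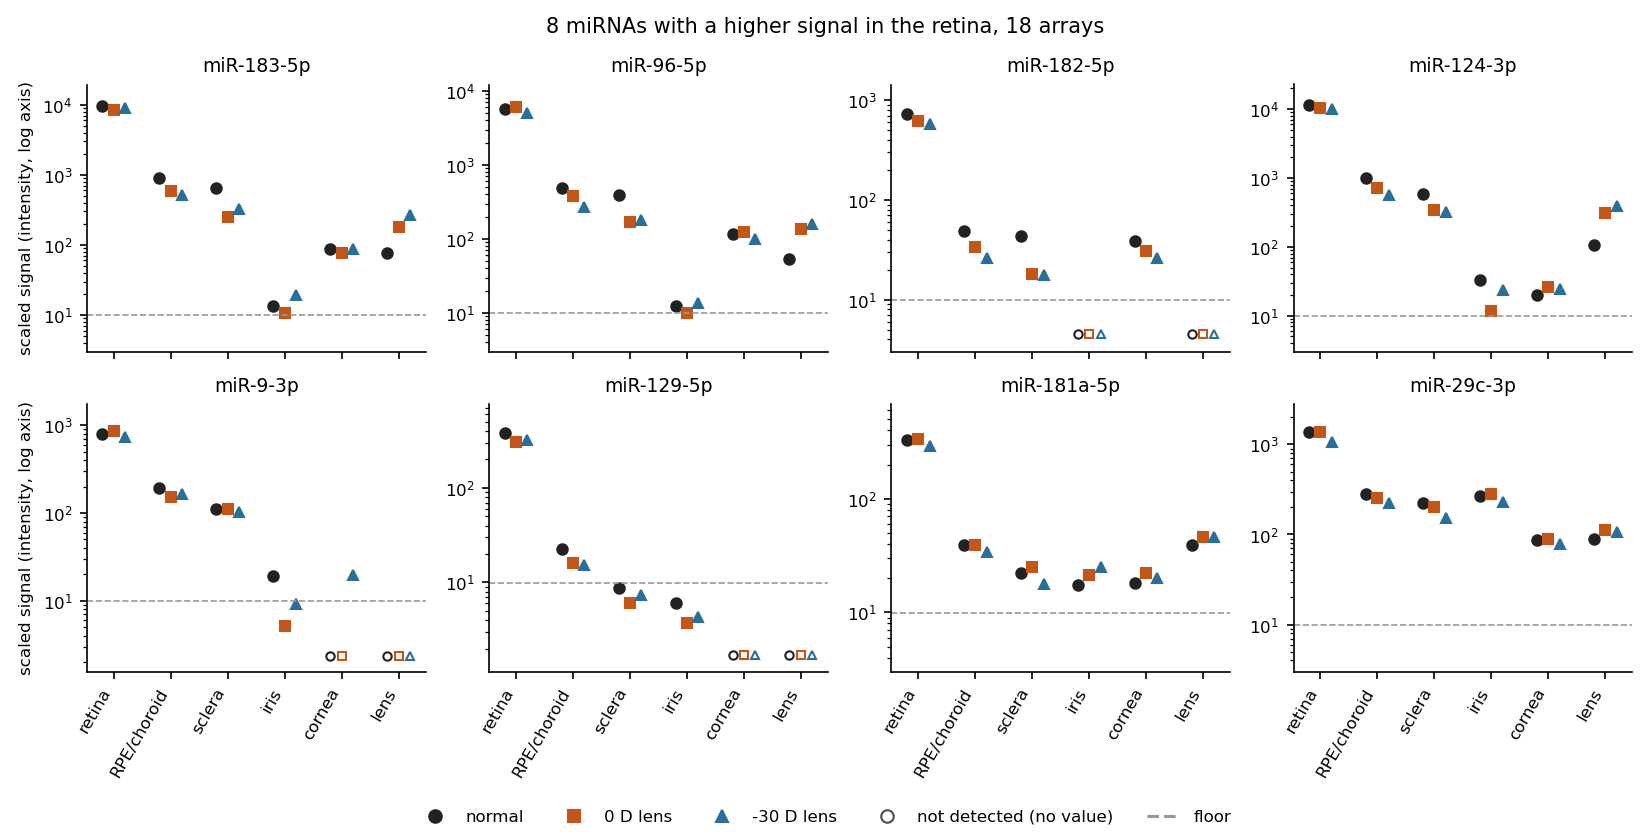
Scaled signal on a log axis of 8 miRNAs on the 18 ocular arrays, by tissue and with a symbol for each lens group, with open symbols at the bottom for arrays on which the miRNA was not detected. In all 8 panels the 3 retina arrays lie above the 15 others, and the RPE/choroid holds the next highest array for miR-183-5p, miR-96-5p, miR-182-5p, miR-124-3p, miR-9-3p and miR-129-5p.

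The neuronal miRNAs miR-124 and miR-9 were also highest in the retina, with 4 of 4 mature miRNAs tested. miR-124-3p, which represses non-neuronal transcripts in neurons, had signals of 11409, 10441 and 10202 in the retina against 11.6 to 985 on the other arrays. Its log2 difference of 6.38 ± 0.36, or 83.5-fold (adjusted p = 1.65e-09, limma), was the largest of all miRNAs tested. Its other strand, miR-124-5p, had 44.1, 50.6 and 38.7 in the retina and was detected on no other ocular array, so that it was at least 3.84-fold higher in the retina. A bound of this kind sets the dim side on each array to the array's lowest detected signal or to the miRNA's own limit, whichever is higher. This limit is 3 times the error, summed over the probes of the miRNA. The bound leaves out the error of the retina's own signal.

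miR-9-3p, from hairpins that are active in neural progenitors and Müller glia, had 794, 868 and 746 in the retina. The RPE/choroid followed with 153 to 191 and the sclera with 102 to 112, while the iris lay between 5.13 and 19.2 and no lens array detected it. The log2 difference was 4.70 ± 0.21. miR-9-5p had 55.2, 67.0 and 51.6 in the retina and was detected elsewhere only in the RPE/choroid, at 5.76 to 7.88, below the floor. Both strands of miR-9 and both of miR-124 were thus higher by at least 2.15 on the log2 scale.

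The miR-129 hairpins are expressed in neurons and had 3 of 4 tested miRNAs highest in the retina. miR-129-2-3p had signals of 424, 443 and 352 in the retina and 17.3 to 24.8 in the RPE/choroid, the next tissue, for a log2 difference from the mean of the other tissues of 5.12 ± 0.09. miR-129-5p, the strand common to both hairpins, had 382, 306 and 324 against at most 22.7, a difference of 4.91 ± 0.09. Neither was detected in the cornea or lens. miR-129-1-3p had 58.4, 64.9 and 47.4 in the retina and at most 4.91 elsewhere, and its difference of 2.51 was 1.88 on the printed total (adjusted p = 0.139, limma) and lost its call there too. The member not called, miR-129b-5p, was detected on no retina array and on 9 of the others.

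These standard errors, and those of other miRNAs that few arrays outside the retina detected, are too small, because the floor removes the spread among undetected arrays. For the same reason the differences are lower than they would be with the undetected values known.

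The miR-181 family, known from retinal neurons and from lymphocytes, had 3 of 5 tested members highest in the retina, all with the seed ACAUUCA. miR-181a-5p had 328, 339 and 293 in the retina and 17.6 to 46.5 on the other arrays. miR-181b-5p had 328, 302 and 273 against 14.7 to 116, with the lens as the next tissue. miR-181c-5p had 90.5, 87.1 and 78.8 against at most 39.99, with the iris as the next tissue. The log2 differences were 3.55 ± 0.11, 3.20 ± 0.09 and 2.37 ± 0.10. The fourth miRNA with this seed, miR-181d-5p, was dim, with 16.1, 16.1 and 10.4 in the retina and at most 7.74 elsewhere, and its difference of 0.49 ± 0.09 did not reach the threshold. The pairs miR-181a and miR-181b lie next to each other at chr1:137966468-137966673 and chr2:38852741-38853868, and the array cannot tell which pair the signal came from.

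Among 12 tested miRNAs of a list of synaptic and other neuronal miRNAs, 4 were higher in the retina, 0 were lower and 8 were neither. Over all miRNAs tested, 18.6% were higher and 13.2% lower. The median difference of the list was 0.04 against −0.03 over all miRNAs tested. miR-132-3p, which responds to neuronal activity, had 89.5, 84.1 and 69.7 in the retina and at most 9.65 elsewhere, a log2 difference of 3.02 ± 0.05. miR-128-3p, a miRNA of mature neurons, had 85.5, 83.7 and 69.1 against at most 28.0, a difference of 2.73 ± 0.26. This difference was 0.09 on the printed total (adjusted p = 0.99, limma), where the call was lost, and after normexp it was 0.99 and not called. miR-598-3p had 96.4, 88.5 and 79.6 against at most 10.8, a difference of 3.14 ± 0.04. miR-149-5p was higher by 1.16 ± 0.09, with 44.9, 45.8 and 42.2 in the retina and 15.2 to 27.9 on the others. On the printed total its difference was −0.67, after normexp it was 0.19, and without the normal RPE/choroid array it was not called.

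The neuronal miRNAs without a call were mostly dim. miR-153-3p, with 20.2, 20.8 and 16.2, was detected in the retina alone and was at least 1.65-fold higher there. miR-138-5p, miR-330-3p and miR-874-3p were also detected in no other ocular tissue, but stayed below the floor on the 3 retina arrays, with at most 6.33. miR-212-3p, from the same locus as miR-132, had 9.86, 12.1 and 8.31 in the retina against 126 to 127 in the lens, and miR-218-5p had 13.8, 16.2 and 10.9 against 65.8 to 72.5 in the lens.

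Of 3 miRNAs of neurons and endocrine cells, 1 was higher, against 18.6% of all miRNAs tested. All 3 were higher without scaling and with undetected miRNAs at the lowest signal of their array, and 0 after normexp. miR-7a-5p had 58.2, 67.1 and 49.7 in the retina, and was detected on a single other array, at 5.86 in the RPE/choroid, but after normexp its difference of 2.54 was 0.97 and not called. miR-7b-5p, of the same seed, had 15.2, 18.4 and 13.8 and was detected on no other array, while miR-375-3p had 16.5, 20.0 and 14.9 in the retina but 43.9 to 46.6 in the lens. Of 5 miRNAs reported in Müller glia, 1 was higher, the miR-9-5p named above, and the other 4, miR-125b-5p, miR-204-5p, miR-99a-5p and miR-100-5p, had log2 differences from −0.40 to −0.13. A count of 1 in 5 is near the 18.6% of all miRNAs tested, and after normexp 0 of the 5 were higher. Of 2 tested miRNAs of oligodendrocytes, 0 were called. Both were called higher without scaling and with undetected miRNAs at the lowest signal of their array. miR-338-3p had 52.0, 60.4 and 45.4 in the retina and 49.9 to 51.5 in the RPE/choroid, so that these overlapped, and miR-219a-5p, with 16.8, 17.7 and 13.4, was detected in the retina alone.

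The miR-29 family, which targets collagens and other matrix genes, had miR-29b-3p and miR-29c-3p among the higher miRNAs. miR-29c-3p had 1391, 1358 and 1073 in the retina and 78.9 to 285 on the other arrays, a log2 difference of 2.98 ± 0.12, and was at least 2-fold above every other tissue. miR-29b-3p had 294, 309 and 220 against 15.9 to 148, a difference of 1.67 ± 0.16, which was 0.72 on the printed total (adjusted p = 0.21, limma) and had no call after normexp either. miR-29a-3p, with the same seed, had 1581, 1324 and 1229 against 90.8 to 1278. Its retina arrays overlapped the sclera arrays, and its difference of 1.02 ± 0.10 did not hold in each lens group. miR-29b-2 and miR-29c lie together at chr1:195037091-195037621, where all 3 tested miRNAs, miR-29c-5p included, were higher in the retina. miR-29b-3p also comes from a second locus with miR-29a, at chr6:31062673-31063047, where 1 of 2 tested miRNAs was higher, and the array cannot tell which locus its signal came from.

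miR-210-3p, the miRNA best known for its induction in hypoxia, had 676, 514 and 560 in the retina. The cornea followed with 221 to 316, and the iris, RPE/choroid and sclera had at most 64.7. Its log2 difference was 2.79 ± 0.13, and it was 2.22-fold above the cornea (adjusted p = 2.9e-05, limma). The retina was thus the highest and the cornea the next, with no overlap.

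Among the miRNAs at the imprinted Dlk1-Dio3 locus on chromosome 12, a large cluster expressed from the maternal allele and known from the brain, calls went both ways. Of 5 tested at chr12:109591729-109595352, 2 were higher, and of 12 at chr12:109709065-109747914, 4 were higher and 1 was lower. Over all miRNAs tested, 18.6% were higher and 13.2% lower. The counts at the locus cover only miRNAs found by name in RefSeq. They leave out miR-487b-3p, which is of the same locus and was called higher. miR-434-3p had 93.4, 92.3 and 80.9 in the retina against 26.8 to 35.4 in the sclera, the next tissue, for a log2 difference of 2.69 ± 0.10. miR-410-3p had 48.6, 46.9 and 42.6 against at most 15.9, miR-300-3p had 62.7, 52.5 and 51.2 against at most 22.5, and miR-382-5p had 27.9, 28.7 and 23.2 against at most 10.01. In each of these 4 the sclera was the next tissue. The differences of miR-300-3p and miR-382-5p, 2.23 and 1.41 on the summed probes, were on the printed total 0.12 (adjusted p = 0.52, limma) and 0.33, and both calls were lost. After normexp miR-434-3p, miR-410-3p, miR-300-3p and miR-382-5p had 1.101, 0.57, 0.70 and 0.25, and none of the 4 was called. miR-127-3p and miR-154-5p were higher than the mean of the other tissues but close to the sclera. The retina was 1.19-fold above it for miR-127-3p (adjusted p = 0.046, limma), and for miR-154-5p, whose arrays overlapped with those of the sclera, the difference was not significant (adjusted p = 0.42, limma). miR-494-3p, in the same cluster, went the other way, with 7.96, 8.33 and 9.24 in the retina and 16.2 to 129 on the other arrays, and its difference moved from −2.25 to −1.24, without a call, on the printed total.

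The remaining miRNAs that were highest in the retina have no list here. miR-3099-3p had 59.7, 43.9 and 47.8 in the retina and at most 6.41 elsewhere, and its difference of 2.33 was 1.09 on the printed total and 0.78 after normexp. miR-331-3p had 188, 164 and 169 against 20.0 to 76.3, miR-425-5p had 35.5, 32.2 and 29.7 against at most 14.47, and miR-1839-3p had 31.5, 38.0 and 29.8 against at most 14.1, but its difference turned from 1.60 to −1.95 on the printed total. These 4 miRNAs had no call on the printed total or after normexp.

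For 25 of the 55 higher miRNAs, the retina was above the mean of the others but not 2-fold above every other array of its lens group. In 23 of the 55 the iris was the next tissue. This was so for miR-103-3p and miR-107-3p, which share the seed GCAGCAU. miR-107-3p had 263, 234 and 223 in the retina and 249 to 264 in the iris, so that these overlapped, and its log2 difference of 1.32 ± 0.11 came from the other 4 tissues. Without the −30 D lens array, the calls of miR-103-3p and miR-107-3p were lost. miR-30c-5p and miR-30e-5p, with the seed GUAAACA, were higher by 1.25 ± 0.13 and 1.15 ± 0.10, and lay 1.36-fold and 1.21-fold above the iris. These calls were lost without the 0 D or the −30 D lens array, and that of miR-30e-5p also without the −30 D sclera array. Without all lens arrays, miR-103-3p, miR-107-3p, miR-30c-5p and miR-30e-5p had differences of 1.08, 1.05, 1.01 and 0.89, and none was called. After normexp all 4 of these miRNAs were below 1 and not called, and miR-30c-5p and miR-30e-5p had no call on the printed total. In the let-7 family, which is expressed in most mature tissues, 1 of 9 tested members was higher, 0 were lower and 8 were neither. Without scaling 5 of the 9 were higher, and after quantile normalization 1 was higher and 1 lower. let-7g-5p had 1077, 1145 and 916 in the retina against 249 to 562, a difference of 1.53 ± 0.08.

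Other seeds had members on both sides. For the seed AGUGCAA shown above, miR-301a-3p had 106, 114 and 97.1 in the retina against at most 73.9, and miR-130b-3p had 32.2, 32.5 and 31.0 against at most 16.9. miR-130a-3p had 169, 183 and 150 against 240 to 707 on all other arrays. The differences were 2.13 ± 0.18, 1.55 ± 0.02 and −1.31 ± 0.08. After normexp those of miR-301a-3p and miR-130b-3p were 0.88 and 0.38, and that of miR-130b-3p was 1.21 on the printed total (adjusted p = 0.135, limma), without a call. For the seed AGCAGCA, miR-16-5p was higher and miR-322-5p lower among 6 tested. Of 13 higher miRNAs whose other strand was tested, 8 had it called higher and 0 lower, and these 8 are both strands of miR-124, miR-183, miR-29c and miR-9. Of 6 lower ones, 2 had it called lower and 0 higher, and these 2 are the strands of miR-199a. The strands of miR-211 differed in sign, at −1.54 for miR-211-3p, which was called, and 1.09 for miR-211-5p, which was not.

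Detection in the retina alone was seen for 27 miRNAs, on all 3 retina arrays and none of the 15 others. Of these, 3 passed the rule for a higher signal. They were miR-124-5p, miR-551b-3p, at least 3.07-fold higher with 39.0, 35.9 and 31.9, and miR-487b-3p, at least 2.32-fold higher with 31.1, 28.1 and 21.7. Their differences of 2.15, 1.84 and 1.43 were 0.95, 0.56 and 0.38, without a call, after normexp, and miR-551b-3p and miR-487b-3p had 1.02 and 0.96, also without a call, on the printed total. Most of the rest were dim, and 13 of the 27 stayed below the floor on every retina array. Those not yet named with a mean above 10 were miR-181a-1-3p, miR-3078-3p, miR-369-5p, miR-370-3p, miR-433-3p and miR-7a-1-3p, of which miR-369-5p, miR-370-3p and miR-433-3p lie at the locus on chromosome 12. The rest were miR-135b-5p, miR-194-5p, miR-342-5p, miR-3535, miR-381-3p, miR-384-5p, miR-433-5p, miR-485-5p, miR-495-3p, miR-677-3p, miR-700-3p and miR-873a-5p. The lowest detected signal was 1.28 to 1.81 on the retina arrays, 4.06 to 9.93 on the cornea and 6.18 to 9.61 on the lens arrays. A dim miRNA could thus be detected in the retina and missed elsewhere at an equal level. For many of the 27, miR-369-5p, miR-370-3p and miR-433-3p among them, the limits of the other arrays allowed no bound on the difference.

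The tissues next to the retina held a part of its leading miRNAs. In the RPE/choroid, miR-124-3p had 5.59% to 8.63% of the signal on the retina array of the same lens group, miR-183-5p 5.84% to 9.27%, miR-96-5p 5.33% to 8.48%, miR-182-5p 4.53% to 6.80% and miR-129-5p 4.74% to 5.94%. For each of these 5 miRNAs the normal array had the highest and the −30 D array the lowest percentage, as for miR-129-2-3p with 4.90% to 5.85%. Other miRNAs lay higher in the RPE/choroid, with 11.6% to 11.9% for miR-181a-5p and 9.66% to 14.3% for miR-9-5p. For these, and for miR-9-3p, the 0 D array had the lowest percentage. The sclera had 3.15% to 5.15% for miR-124-3p and 2.97% to 6.78% for miR-183-5p. The iris had at most 0.293% of miR-124-3p and 0.217% of miR-183-5p, and the cornea at most 0.251% and 0.988%. In the lens these percentages were 0.920% and 0.792% on the normal array and higher on the 0 D and −30 D arrays, up to 3.83% and 3.01%. miR-9-3p had a larger part, with 17.7% to 24.1% in the RPE/choroid and 12.9% to 13.9% in the sclera. Whether these signals came from retina left on the tissues or from cells of their own was not tested.

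**Figure D3:**
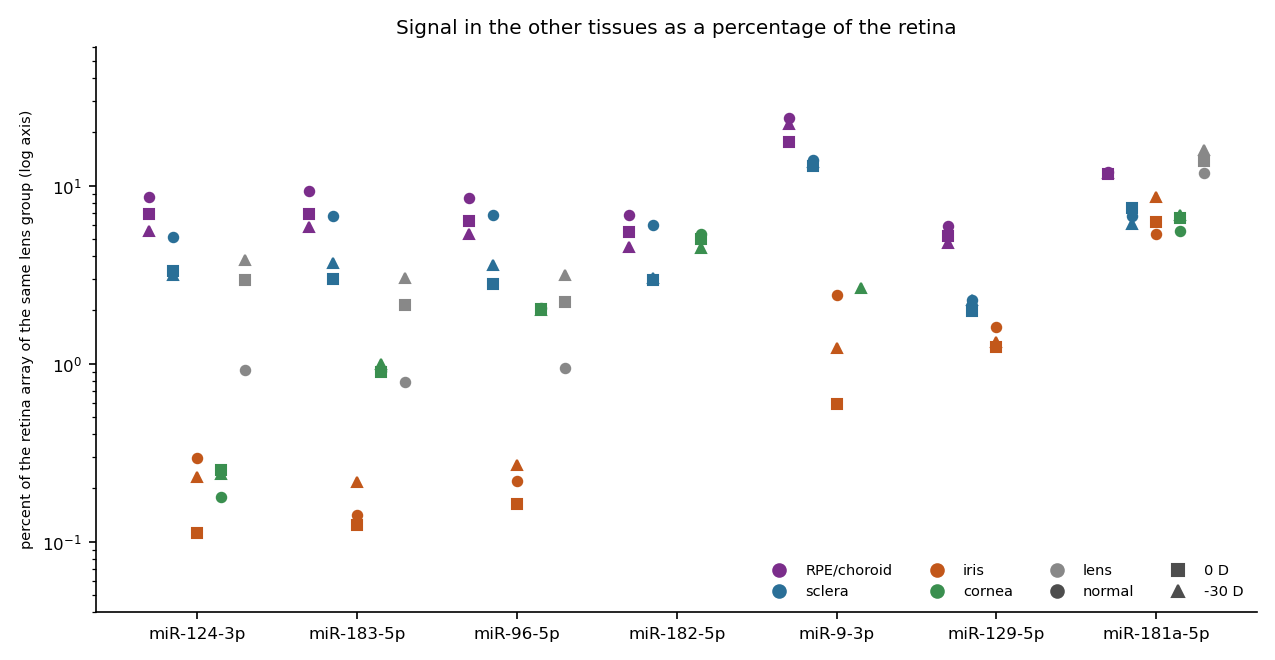
Signal of 7 miRNAs in each other tissue as a percentage of the retina array of the same lens group, on a log axis, with a color for each tissue and a symbol for each lens group, and no symbol where the miRNA was not detected. For the first 4 miRNAs and miR-129-5p the RPE/choroid lies between 4.53% and 9.27% of the retina. For miR-181a-5p it lies between 11.6% and 11.9%, and for miR-9-3p between 17.7% and 24.1%.

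Over all 30 miRNAs highest in the retina, the RPE/choroid detected 23 to 26 on an array, with median percentages from 11.55% to 11.98% of the retina. The sclera detected 20 to 23, the iris 16 to 21, the cornea 12 or 13 and the lens 8 or 9. The correlation with the retina over the 295 miRNAs, with the floor applied, was highest for the RPE/choroid, with Pearson's r of 0.789 to 0.823 across miRNAs, which are not independent, and lowest for the lens, with 0.555 to 0.609. By the number of miRNAs at least 2-fold apart the iris was the nearest, with 45 higher and 41 lower in the retina, against 50 and 48 for the RPE/choroid.

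Of the lower miRNAs, miR-184-3p had the largest difference. It is an abundant miRNA of the corneal epithelium and lens, and a mutation in its seed causes an inherited disease of both. Its signals of 70.5, 32.6 and 40.7 in the retina stood against 29710 to 36854 in the cornea and 11130 to 16390 in the lens. The iris had 505 to 550, the sclera 111 to 275 and the RPE/choroid, the nearest tissue, 99.7 to 147. All 15 arrays were above the 3 retina arrays, and the difference was −4.92 ± 0.26 on the log2 scale (adjusted p = 7.85e-10, limma).

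miRNAs of mesenchymal cells, which are typical of fibroblasts, were lower in the retina with all 4 members tested. miR-199b-5p had 3.73, 3.05 and 5.09 in the retina, below the floor, and 950 to 1052 in the sclera, while no lens array detected it. miR-199a-3p had 3.63, 4.02 and 4.78 against 832 to 929 in the sclera. The log2 differences with the floor were −4.05 ± 0.04 and −3.88 ± 0.05. miR-199a-5p and miR-214-3p were detected on no retina array, and the sclera was at least 20.5-fold and at least 31.0-fold higher. Both calls were lost without any 1 sclera array. miR-199a-2 and miR-214 lie in 1 cluster at chr1:162217844-162223459, where all 3 tested miRNAs were lower in the retina. On the printed total miR-199b-5p, miR-199a-3p and miR-199a-5p had −0.66, −0.55 and −0.81, and 1 of the 4, miR-214-3p, was called. The list's summed signal was 7.07 to 9.87 in the retina and 2048 to 2266 in the sclera.

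**Figure D4:**
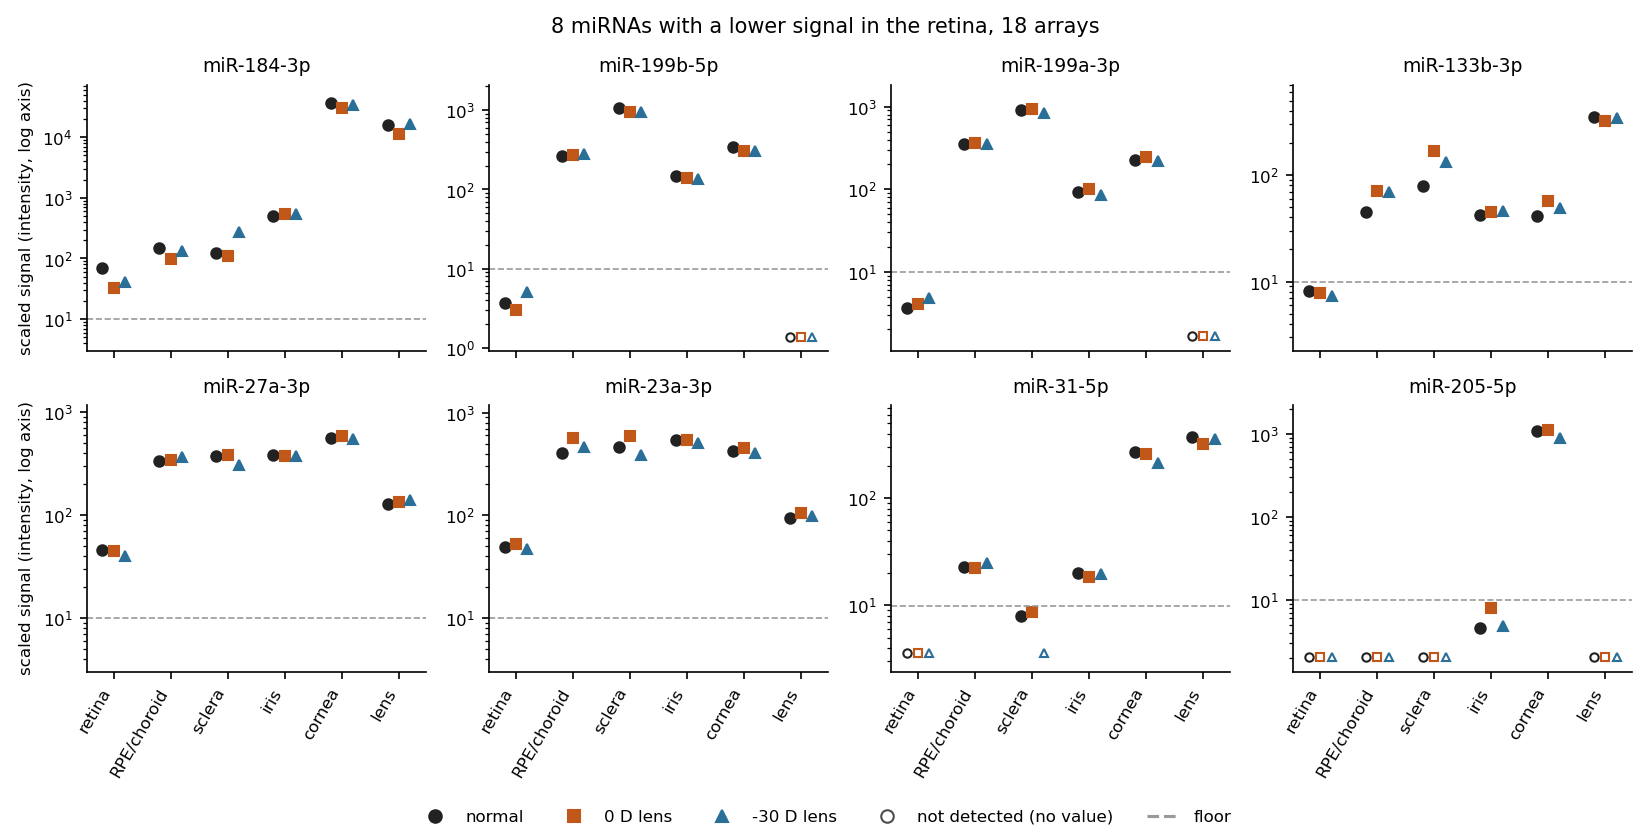
Scaled signal on a log axis of 8 miRNAs on the 18 ocular arrays, by tissue and lens group, with open symbols at the bottom for arrays on which the miRNA was not detected. The 3 retina arrays are the lowest for miR-184-3p, miR-133b-3p, miR-27a-3p and miR-23a-3p, while miR-199b-5p and miR-199a-3p were not detected in the lens and miR-205-5p was detected in the cornea and iris alone.

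The miR-23a/27a/24-2 cluster at chr8:84208563-84208896, known from endothelial and blood cells, was lower with all 3 miRNAs. miR-27a-3p had 45.2, 44.4 and 40.3 in the retina against 128 to 583 on the other arrays, a log2 difference of −2.90 ± 0.06, and it was 1 of the 3 miRNAs that were at least 2-fold below every other array. miR-23a-3p had 48.7, 52.2 and 46.9 against 93.9 to 591, a difference of −2.82 ± 0.11. miR-24-3p, which a second locus can also produce, had 180, 161 and 159 against 139 to 863, with the lens below the retina.

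Among miRNAs of striated muscle, 2 of 4 tested were lower and 0 higher. miR-133b-3p had 8.18, 7.74 and 7.37 in the retina and 41.5 to 355 on the other arrays, and miR-133a-3p had 6.37, 5.65 and 5.38 against 27.6 to 315. These were the other 2 miRNAs that were lowest in the retina, and both were brightest in the lens, with 325 to 355 and 267 to 315. On the printed total, their differences moved from −3.15 ± 0.18 to −0.47 (adjusted p = 0.044, limma) for miR-133b-3p and from −2.68 ± 0.17 to −0.26 (adjusted p = 0.168, limma) for miR-133a-3p, and both calls were lost. miR-1a-3p was detected on no retina array and on 14 of the others, but its difference of −1.16 ± 0.25 did not hold in each lens group. It was called lower without scaling (−1.69), on the printed total (−2.72) and after normexp (−1.44). miR-206-3p was detected on no retina array and on 4 others.

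The epithelial lists were not detected in the retina at all, with 0 of 5 miRNAs of stratified epithelium and 0 of 7 of the miR-200 family on any of its 3 arrays. The miR-200 family was likewise undetected on every lens, RPE/choroid and sclera array, so that its absence is not particular to the retina. miR-205-5p, a marker of stratified epithelia, had 895 to 1108 in the cornea, at least 178-fold above the retina. miR-200b-3p and miR-200c-3p, which keep epithelial cells from a mesenchymal state, were at least 90.0-fold and 86.6-fold higher in the cornea. With undetected arrays at the floor, 2 of 4 and 3 of 5 tested members passed the rule, and miR-205-5p and the 3 of the miR-200 family lost their call without any 1 cornea array. Without all cornea arrays, miR-200b-3p, miR-200c-3p, miR-429-3p and miR-205-5p had differences of −0.11, −0.05, −0.14 and 0, and none was called. On the printed total 0 members of the miR-200 family passed. miR-31-5p was at least 60.03-fold higher in the lens, with 321 to 370, and had 211 to 273 in the cornea.

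Of the smooth muscle miRNAs, 1 of 2 tested was lower. miR-143-3p was detected on no retina array and had 304 to 310 in the iris, at least 52.9-fold more, and lost its call without the −30 D iris array. Of 3 tested miRNAs of blood cells, 1 was lower, with miR-223-3p of myeloid cells on no retina array and at 52.6 to 58.2 in the RPE/choroid, whose difference of −1.48 was −1.37 on the printed total (adjusted p = 0.112, limma). miR-451a of red cells had 11.6, 13.3 and 10.97 in the retina and 34.2 to 59.4 in the RPE/choroid, and did not pass. The endothelial miR-126a-3p had 70.5, 75.1 and 67.5 in the retina, 1030 to 1203 in the RPE/choroid and no detected signal in the lens, and its difference of −0.77 ± 0.47 was not significant (adjusted p = 0.167, limma). It was called lower after normexp (−1.39), after quantile normalization (−1.18), without the cornea arrays (−1.41) and without the lens arrays (−1.67).

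Of the 15 miRNAs with the largest falls, those not yet named were brightest in the lens or the cornea. miR-7047-5p had 15.1, 11.4 and 13.4 in the retina and 435 to 609 in the lens, miR-3960 had 47.0, 37.8 and 40.4 against 2030 to 3152, and miR-5126 had 110, 80.5 and 90.5 against 1289 to 2008. miR-193b-3p had 33.3, 26.0 and 27.9 in the retina and 510 to 661 in the lens. For these 4, the retina was also below the other 4 tissues on every array. miR-322-5p had 5.15, 5.33 and 5.57 in the retina and 123 to 136 in the cornea. On the printed total miR-7047-5p and miR-322-5p had differences of −0.67 and −0.76, without a call, in place of −2.56 and −2.37. miR-466h-3p had 14, 8.99 and 9.98 against 11.96 to 153 on the others, where the normal retina array overlapped with the iris. Its difference of −2.01 was not called on the printed total or after normexp, nor without scaling, where it was −1.10. For the seed AAAGUGC, miR-20a-5p and miR-20b-5p were lower among 4 tested, with 44.1, 35.2 and 36.9 for miR-20a-5p in the retina and 436 to 532 in the lens. For the seed CAGUGCA, miR-148a-3p and miR-152-3p were lower among 3 tested.

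Detection on at least 12 of the 15 other arrays but on no retina array was seen for 10 miRNAs. They were miR-31-5p, miR-1a-3p, miR-199a-5p, miR-455-3p, miR-2137, miR-6538, miR-6769b-5p, miR-7118-5p, miR-7686-5p and miR-8101. Of these, miR-6769b-5p and miR-6538 were at least 53.0-fold and 28.8-fold higher in the lens, although miR-6769b-5p and miR-7118-5p had no call on the printed total, while miR-455-3p, a miRNA of cartilage, was at least 2.90-fold higher in the sclera.

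The pigment epithelium miRNAs did not mark off the retina. miR-204-5p, a miRNA of the pigment epithelium and of neural retina alike, had 605, 668 and 526 in the retina, 758 to 881 in the RPE/choroid and 1198 to 1349 in the lens, and its difference from the mean of the others was −0.14 ± 0.08 (adjusted p = 0.152, limma). miR-211-5p had 162, 190 and 144 in the retina, 71.9 to 127 in the RPE/choroid and 772 to 906 in the iris. Its difference of 1.09 ± 0.28 was not above the threshold in each lens group. Of the 4 tested miRNAs of this list, 0 were higher and 1, miR-211-3p, was lower, with 18.2, 14.1 and 16.1 in the retina and 326 to 432 in the lens and no call without any 1 lens array. Without scaling, 1 of the 4 was higher and 0 were lower.

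**Figure D5:**
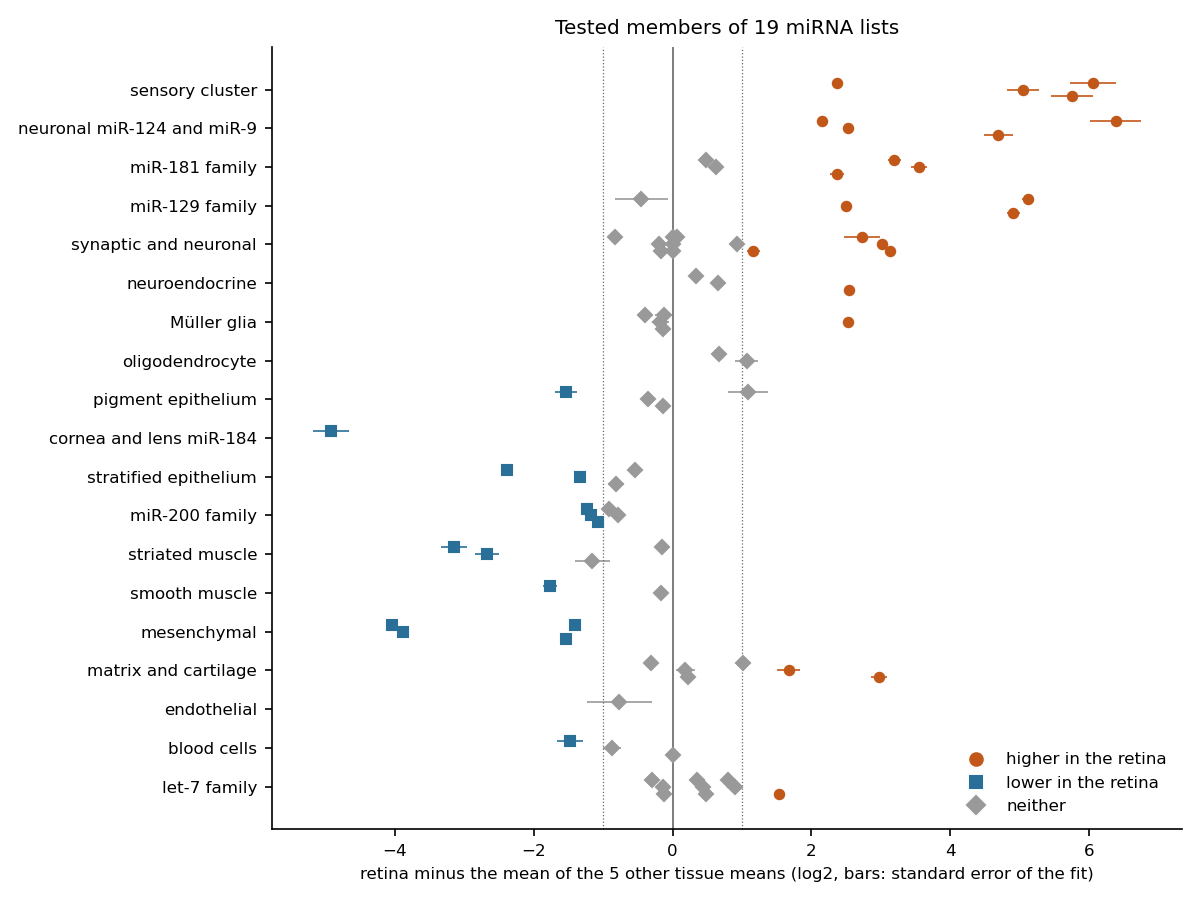
Log2 difference between the retina and the mean of the other 5 tissue means for the tested members of 19 miRNA lists, with bars for the standard error of the fit and symbols for the call. The sensory, miR-124 and miR-9 lists lie above 2 with all tested members, and the mesenchymal list lies below −1 with all 4.

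All 8 tested members of the sensory list and of the miR-124 and miR-9 list were highest in the retina among the ocular tissues. The lists were chosen with earlier results of these data known, so that this count is no independent check of the label. Of the synaptic and neuronal list 4 of 12 tested members were higher, and of the Müller glia list 1 of 5, against 18.6% of all miRNAs tested. The markers of stratified epithelium, the miR-200 family and smooth muscle were not detected on any retina array. The miR-200 family was also undetected in the lens, RPE/choroid and sclera, and the smooth muscle list in the cornea and lens. The summed signal of the blood list was 10.97 to 13.3 in the retina against 99.3 to 129 in the RPE/choroid, and that of the endothelial list 67.5 to 75.1 against 1030 to 1208. The part of these cells in any single difference was not tested.

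In sequence, the 47 higher miRNAs found in RefSeq had a median GC content of 45.8%, below that of the 32 lower ones and of the 244 tested miRNAs, both at 50%, and the median length was 22 bases in each set. Of the 47 higher ones, 23 came from the 5′ and 23 from the 3′ strand of the hairpin by name, against 11 and 17 of the 32 lower ones and 114 and 98 of the 244 tested.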

How the data were processed

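The study measured miRNA on 24 one-color Agilent arrays (8 tissues, 3 lens groups, 1 array each). Per the labels, scans were read by Feature Extraction 10.7.1.1, and the deposited intensity values used here are its total probe signals after background subtraction, with their errors. Each miRNA has 30 spots on 1 to 4 probes. The signal of a miRNA was the sum over probes above 3 errors. A deposited table with 24 value columns that the authors named normalized was not used, because the letters for the lens group in its column names have more than 1 reading.

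Signals were scaled to an equal 75th percentile of the 79 miRNAs that no array missed (log2 factors from −1.01 to 1.65, and from −0.89 to −0.57 for the retina), and values below the common floor of 9.93 were set to it. Tested were the 295 miRNAs detected on all 3 arrays of at least 1 ocular tissue. Tissue means were fitted to the 18 ocular arrays with limma 3.58.1 in R 4.3.3 (12 residual degrees of freedom), with the contrast of the retina against the mean of the other 5 tissue means and Benjamini-Hochberg adjustment. Of these, 31 stayed at the floor on all ocular arrays. The number of arrays limits the precision.

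Named were the 15 miRNAs with the largest difference in each direction, all that were highest or lowest in the retina, members of 19 lists written from general knowledge, miRNAs detected in the retina alone, miRNAs detected on at least 12 other arrays and no retina array, the 3 with the largest range in the retina, and higher miRNAs with a common seed. The members and lists were chosen with earlier results of these data known. The fit was tested on simulated data, and 60 of 60 miRNAs changed 4-fold in the 295 were recovered with 0 false calls. The simulation gave every miRNA the same normal spread and the other tissues equal means, and set no floor. It therefore cannot show how well calls hold for miRNAs near the floor or with unequal spread. Loci within 10000 bases of each other were taken as 1 cluster. Other scalings, floors, filters, thresholds and background corrections, a block for the slide, and fits without each array, tissue or lens group were tried. Python 3.11.15, numpy 2.4.6, pandas 2.3.3 and matplotlib 3.10.9 were used.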

Additional observations from a re-analysis of the deposited data

How the results depend on the processing

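Against 55 higher, 39 lower, 30 highest and 3 lowest miRNAs, the counts that moved by more than 1.5 times were as follows. Without scaling, and identically with the 75th percentile over all miRNAs, since fewer than 25% were detected, 98 were higher, 48 highest and 0 lowest. Quantile normalization gave 5 lowest. With undetected miRNAs at 0.1, 122 were higher, 83 lower and 59 highest, and at the lowest signal of their array 105 were lower and 27 lowest. Normexp with an offset of 50 gave 16 higher, 10 highest and 9 lowest, and a 4-fold threshold 23 higher, 13 lower, 16 highest and 1 lowest. The lowest count was 6 without the cornea, 5 without the iris and 9 without the lens arrays. Leaving out 1 array gave 45 to 60 higher, 33 to 48 lower, 30 to 39 highest and 3 to 10 lowest miRNAs, with 10 lowest without the normal retina array and 5 without the normal cornea array. Leaving out the whole normal slide, an alternative chosen after seeing the data, also gave 10. A block for the slide, which pairs the tissues of a lens group, the brain arrays in the fit and a trended robust fit gave the same 4 counts. Named miRNAs turned direction in 4 cases. On the total signal printed in the files, which differed by more than 1% from the sum of the probes for 52 to 96 detected miRNAs per array, miR-149-5p had a difference of −0.67 and miR-1839-3p of −1.95, and with undetected miRNAs at 0.1 miR-139-5p had 2.15 and miR-218-5p 3.81. The calls of miR-205-5p, miR-200b-3p, miR-200c-3p and miR-429-3p were lost without any 1 cornea array, those of miR-199a-5p and miR-214-3p without any 1 sclera array, and those of miR-211-3p, miR-6769b-5p and miR-7118-5p without any 1 lens array, because the tissue that carries the difference is then missing from a lens group. Without the −30 D lens array, miR-103-3p, miR-107-3p, miR-30c-5p and miR-30e-5p were also lost.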

Other observations

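The 6 arrays of the brain regions of the same series, the SCN and the LGN, entered no comparison. Of the 30 miRNAs that were highest in the retina among the ocular tissues, the 3 retina arrays lay above all 6 brain arrays for 14, below all 6 for 9 and among them for 7. miR-183-5p was detected on 2 brain arrays, at 3.97 and 8.21, and miR-96-5p, miR-182-5p and miR-183-3p on none. miR-124-3p had 1396 to 2111 in the brain against 10202 to 11409 in the retina, and miR-210-3p had 9.27 to 30.2 against 514 to 676. miR-181a-5p had 25.7 to 69.8 in the brain against 293 to 339. On the other side, miR-128-3p had 516 to 1073 in the brain against 69.1 to 85.5 in the retina, miR-132-3p had 183 to 320 against 69.7 to 89.5, and miR-9-3p had 1049 to 1417 against 746 to 868. miR-410-3p had 175 to 553 against 42.6 to 48.6 and miR-434-3p 302 to 601 against 80.9 to 93.4, and miR-300-3p, miR-382-5p and miR-487b-3p, of the same locus on chromosome 12, and miR-551b-3p were also higher on every brain array than on every retina array. These are values of 3 against 6 arrays without a test.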
